A study of Arabidopsis thaliana with 12 samples.

Results

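The response of wild-type Arabidopsis thaliana, the accession Col-0, to lincomycin was read from 4 whole-seedling samples of the 12 in the series: 2 grown without the antibiotic and 2 grown with it. The samples were chosen by their labels, and each was hybridised to an Affymetrix ATH1 array, which carries sets of short probes for most Arabidopsis genes. All seedlings in the series were 5 days old, of the Col-0 ecotype, and grown at 21 °C in alternating light and darkness (20 µmol per square metre and second) on half-strength Murashige-Skoog medium with 1% sucrose. The lincomycin dose is given as 220 µg/ml in the treatment protocol and as 200 µg/ml in the source name. The other 8 arrays held 2 mutants, gun1-1 (in a plastid pentatricopeptide repeat protein) and abi4-102 (in a transcription factor), with 2 samples without and 2 with lincomycin per mutant. Replicate 2 of the untreated gun1-1 group carries a genotype label that names all 3 genotypes, and its title placed it in that group. Every group mean below has n = 2, and nothing in the labels says that the samples of a group came from separate cultures, so the spread behind the p-values may be technical. In whole seedlings, fewer cells of a type and less RNA per cell cannot be told apart.

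Lincomycin blocks translation on the bacterial-type ribosomes inside plastids. Seedlings kept on it make no functional chloroplasts and live on the sugar of the medium and on their own reserves. Cells sense the state of their plastids and change the transcription of nuclear genes, a process known as retrograde signalling, whose best known targets are photosynthesis genes. The account below turns to the nuclear genes outside photosynthesis: those of metabolism, hormones, the cell wall and defence.

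The values are log2 intensities, so a difference of 1 is a 2-fold change. A gene was called where the Benjamini-Hochberg adjusted p of limma's moderated test, taken over all 22746 probe sets, was under 0.05. Of 13216 nuclear genes that a probe set names alone, 1093 were higher with lincomycin in Col-0 (8.27%) and 892 lower (6.75%). These shares, over genes of all levels, are the background for the counts of members below. A listed gene counts as measured only if it is among these 13216 genes. Unnamed probe sets may measure others, so the lists were read in part, such as 1 of 60 ethylene and 22 of 240 cytochrome P450 genes. Over all 22746 probe sets, named or not, 3948 were called (17.4%), 2139 higher (9.40%) and 1809 lower (7.95%). The replicates without lincomycin correlated at r = 0.9963 across probe sets and those with it at r = 0.9905. The median difference between replicates was 0.103 without and 0.148 with lincomycin, and the median response of all nuclear genes was 0.02. The share of nuclear genes called rose with their level, from 0.636% in the dimmest of 4 equal classes (mean log2 value up to 3.52) through 6.45% and 22.1% to 30.9% in the brightest (6.83 to 12.68). A dim member without a call may therefore still have changed, and a list of bright genes can exceed the shares of all genes. In the brightest class 551 of 3304 genes were higher and 470 lower, and in the class below it 407 and 323. The lists of amino acid breakdown, aldehyde dehydrogenase, endoplasmic reticulum folding and ATG8 genes had 0 members below the median level. Leaving out a Col-0 array leaves 1 in its group, so a call can then be lost through lower precision alone. Without Col-0 without lincomycin replicate 2 the calls over all probe sets fell from 2139 to 913 higher and from 1809 to 1186 lower. Without replicate 1 of that group they were 1118 and 1204, and without Col-0 with lincomycin replicate 1 they were 1260 and 1492.

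Over all nuclear genes, those of photosynthesis included, the response leaned to large falls and small rises. The called nuclear genes that rose had a median change of 1.53-fold and those that fell one of 1.76-fold. At least 2-fold changes numbered 128 upward and 305 downward, at least 4-fold changes 13 and 39, and at least 8-fold changes 0 and 9. For context, 9 of 10 listed nuclear photosynthesis genes fell, with a median log2 fold change of -1.44, which matches the labels of the treated samples. In every called nuclear gene the arrays of the groups did not overlap, which was also so for 55.5% of all nuclear genes.

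The lists could also be read for the kinds of cells in the samples. Neither measured root hair gene passed: EXPA7 and EXPA18, expansins of growing root hairs, had log2 fold changes of -0.05 and 0.38, and their summed linear level was 62.6 to 65.2 without and 63.1 to 84.8 with lincomycin. STOMAGEN, a peptide made in the mesophyll that promotes the formation of stomata, stood at 8.16 and 8.11 without lincomycin and at 7.01 and 7.06 with it (log2 fold change -1.10, SE 0.11, adjusted p = 5.89e-05). The 3 measured genes of the stomatal lineage itself did not pass, among them SPCH (-0.28) and FMA (-0.24), regulators of the first and last steps of the lineage. The summed level of STOMAGEN and these 3 genes was 359 and 361 without and 191 and 205 with lincomycin, mostly from STOMAGEN. The oleosin gene OLEO3, the measured seed marker, was dim in all Col-0 arrays (summed level 15.1 to 17.2) and did not pass. No listed xylem marker was analysed here. The part of tissue make-up in the results below was not tested.

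Most of the genes with the largest falls carry only a locus number in the annotation used here. A gene with neither a symbol nor a descriptive synonym there was kept out of the lists, so its family was not counted in them. AT3G28270 went from 9.90 and 9.86 without lincomycin to 3.89 and 3.97 with it, near the floor of the array. AT2G27420 went from 8.74 and 8.66 to 3.47 and 3.40, and AT3G28220 from 7.95 and 7.74 to 3.81 and 3.55. In all 3 the gap between the groups was more than 10 times the gap between replicates. AT1G60590 (9.27 and 9.23 without, 5.38 and 4.81 with), AT5G48490 (10.04 and 9.85, then 6.30 and 6.68) and AT1G23205 (7.17 and 6.84, then 3.64 and 3.68) also fell. Full separation of the arrays was a condition of the rule that named genes by the size of their change. Of the rises, AT2G43620 stood at 6.12 and 5.94 without lincomycin and at 8.20 and 9.29 with it, and its adjusted p of 0.0478 rose to between 0.0702 and 0.221 when any Col-0 array was left out. AT1G19530 (5.09 and 5.16, then 7.85 and 7.37), AT4G21740 (3.91 and 3.67, then 6.08 and 5.80) and AT5G17760 (5.29 and 4.88, then 7.08 and 7.38) kept their call without any of the arrays.

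**Figure D1:**
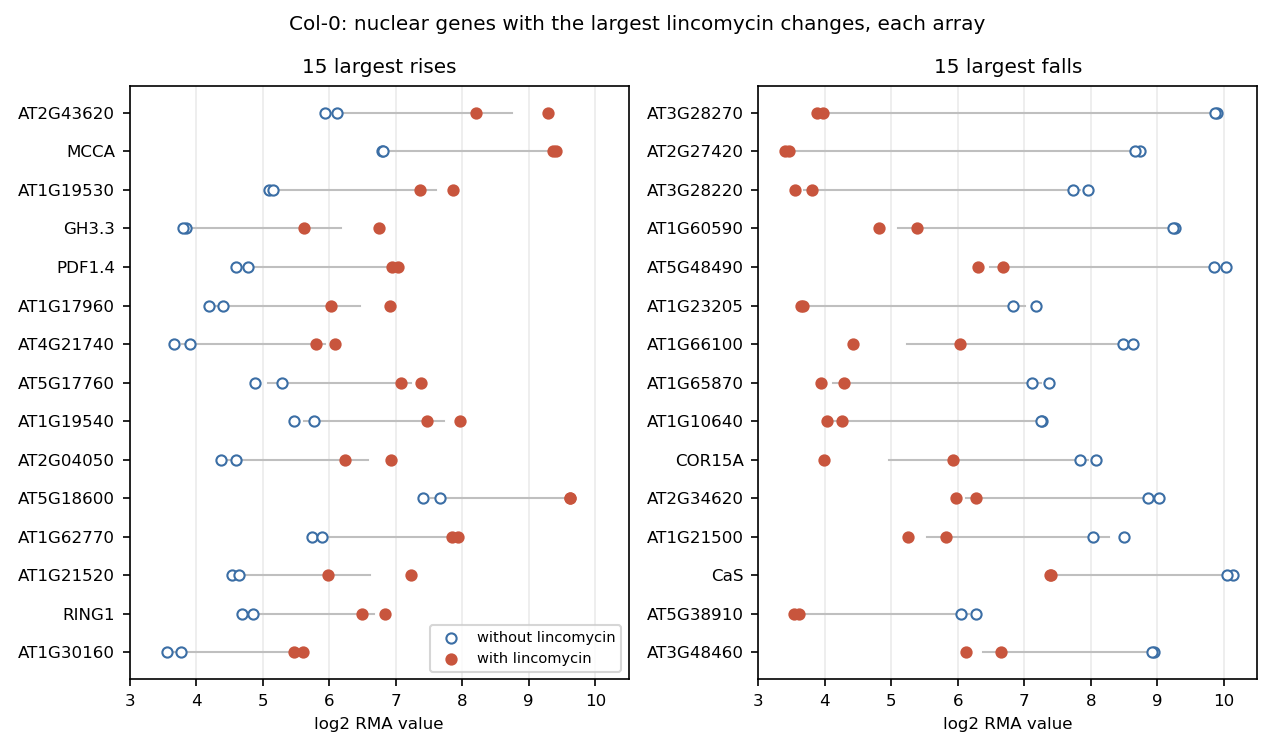
Log2 RMA values (horizontal axis) of the 15 nuclear genes with the largest rises and the 15 with the largest falls in Col-0; open points are the 2 arrays without and filled points the 2 arrays with lincomycin, and grey lines join the group means. The 4 arrays of AT3G28270 lie at 9.90 and 9.86 without and at 3.89 and 3.97 with lincomycin, while the treated arrays of COR15A lie far apart, at 5.93 and 3.99.

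Genes of branched-chain amino acid breakdown rose together. This mitochondrial pathway turns leucine, isoleucine and valine into fuel and passes electrons to respiration, and its genes are known to be induced in darkness and sugar starvation. The list of amino acid breakdown and dark-induced genes had 8 measured members. Of these 6 rose, none fell and the other 2 missed the threshold, beside 8.27% higher and 6.75% lower of all nuclear genes. The median log2 fold change was 0.87 against 0.02 over all nuclear genes. None of the 8 lay below the median level of nuclear genes, and brighter genes were called more often. The list was chosen with earlier results of these data known, so its count is a description.

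MCCA and MCCB encode the biotin-bearing and the other subunit of methylcrotonyl-CoA carboxylase, which carries out a late step of leucine breakdown. MCCA stood at 6.80 and 6.81 without lincomycin and at 9.36 and 9.41 with it (log2 fold change 2.58, SE 0.19, adjusted p = 8.78e-06). MCCB went from 7.69 and 7.54 to 9.24 and 9.23, a 3.08-fold rise (adjusted p = 2.40e-05). In both, the arrays of a group lay close together and far from the other group. IVD, isovaleryl-CoA dehydrogenase, acts just before this carboxylase and went from 7.75 and 7.77 to 9.13 and 8.75 (2.26-fold, adjusted p = 0.00199). ETFQO, which hands the electrons released by IVD to ubiquinone, went from 6.23 and 6.22 to 7.28 and 7.05 (1.92-fold, adjusted p = 0.000261). The subunits of the electron transfer flavoprotein, the carrier between these enzymes, rose less: ETFBETA by 0.70 and ETFALPHA by 0.45 on the log2 scale (adjusted p = 0.0322 and 0.0279). LKR/SDH (AT4G33150), of lysine breakdown, had a log2 fold change of 0.79 with treated arrays at 8.07 and 7.27 and did not pass (adjusted p = 0.0811, and 0.0211 without Col-0 with lincomycin replicate 2). D2HGDH, which oxidises 2-hydroxyglutarate and feeds the same carrier, had one of 0.28 (adjusted p = 0.303).

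MCCA, MCCB, IVD and ETFQO stayed called without any of the 12 arrays. ETFALPHA lost its call without each Col-0 array (adjusted p 0.0605 to 0.16), and ETFBETA lost it without 3 of the 4 (up to 0.225), so the count of rises was 4 or 5 of 8 in those fits.

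Of 8 measured aldehyde dehydrogenase genes, 3 rose and 0 fell (median 0.38), beside 8.27% and 6.75% of all nuclear genes. ALDH6B2, methylmalonate-semialdehyde dehydrogenase of valine breakdown, stood at 8.17 and 8.08 without and at 9.17 and 9.48 with lincomycin (2.30-fold, adjusted p = 0.000168). ALDH10A8 and ALDH10A9, aminoaldehyde dehydrogenases, rose 1.43-fold and 1.38-fold. ALDH10A8 kept its call without Col-0 with lincomycin replicate 2 but not without the other 3 Col-0 arrays (up to 0.0824), and ALDH10A9 lost it without each (0.0793 to 0.15).

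Of 14 measured enzymes of citrate and succinate metabolism 6 rose, beside 8.27% of all nuclear genes, and 8 did not pass. The log2 fold changes ran from -0.36 to 1.03 with a median of 0.22, and 3 to 5 members were called when a Col-0 array was left out. ACLA-3, a subunit of ATP-citrate lyase, which splits citrate into acetyl-CoA and oxaloacetate in the cytosol, went from 8.02 and 7.95 to 8.998 and 9.03 (2.04-fold, SE 0.10 on the log2 scale, adjusted p = 4.84e-05). ICDH (AT1G54340), an isocitrate dehydrogenase, went from 5.84 and 5.79 to 6.59 and 6.73 (1.79-fold, adjusted p = 0.000559). IDH-V, a subunit of the NAD-dependent isocitrate dehydrogenase of the citric acid cycle, rose 1.49-fold. Subunits of succinate dehydrogenase, respiratory complex II, rose by little: SDH2-1 1.41-fold, SDH2-2 1.38-fold and SDH1-1 1.33-fold. ACLA-3 and ICDH kept their call without any array. IDH-V missed it without Col-0 without lincomycin replicate 1 (adjusted p = 0.0535), and SDH1-1 without each Col-0 array (0.0598 to 0.111). Of the Col-0 arrays, SDH2-1 kept it without with-lincomycin replicate 2 and lost it without the other 3 (up to 0.182). SDH2-2 lost it without Col-0 with lincomycin replicate 1 (0.0596) and without Col-0 without lincomycin replicate 2 (0.118).

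**Figure D2:**
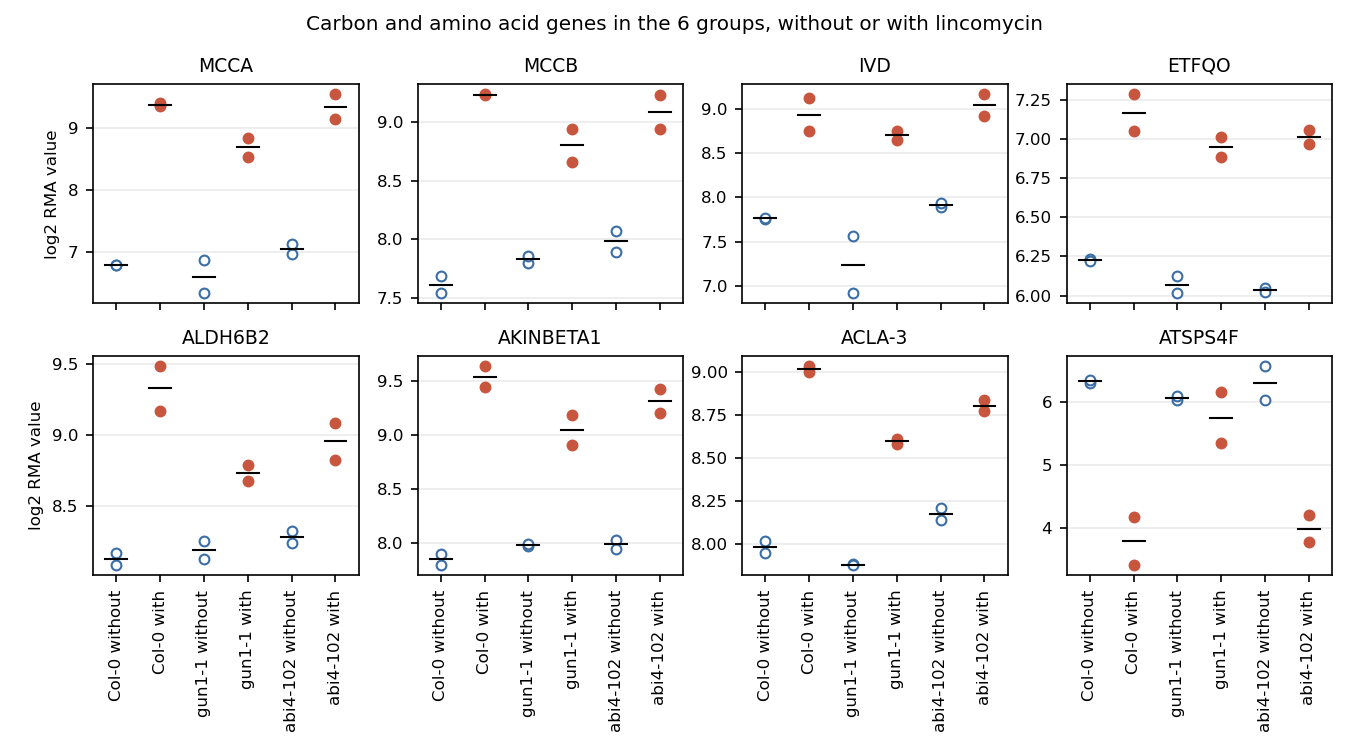
Log2 RMA values (vertical axis) of 8 genes of amino acid breakdown, energy signalling and carbon metabolism in the 6 groups; open points are arrays without and filled points arrays with lincomycin, and bars are means of 2. MCCA stands at 6.80 and 6.81 in Col-0 without lincomycin and at 9.36 and 9.41 with it, and ATSPS4F is low in the treated Col-0 and abi4-102 arrays.

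Sugar and starch genes gave few calls, in both directions. ATSPS4F, a sucrose-phosphate synthase, the enzyme that commits carbon to sucrose, went from 6.29 and 6.34 without lincomycin to 3.42 and 4.18 with it (5.74-fold lower, SE 0.29 on the log2 scale, adjusted p = 0.000209). It stood in none of the lists and was named for the size of its fall. Of 23 measured members of the starch and sugar list, 1 rose and 3 fell (median -0.13), beside 8.27% and 6.75% of all nuclear genes. Of the 23, 14 were below the median level of nuclear genes. APL3, a large subunit of ADP-glucose pyrophosphorylase in starch synthesis, fell 1.64-fold, from 4.49 and 4.24 to 3.83 and 3.48. SWEET2 and SWEET13, sugar transporters, fell 1.53-fold and 1.48-fold, and the other 14 measured SWEET genes did not pass, among them SWEET4 with a log2 fold change of -0.96 (adjusted p = 0.0722, and 0.00684 in a fit of the Col-0 arrays alone). AT4G24450, which carries the symbol PWD in the annotation, rose 1.66-fold, from 4.22 and 4.08 to 4.75 and 5.02. The other listed locus with that symbol, AT5G26570, did not pass. ATSPS4F was called without any of the arrays left out. APL3 lost its call without Col-0 with lincomycin replicate 2 and without Col-0 without lincomycin replicate 1 (adjusted p = 0.0592 and 0.0737), and AT4G24450 without Col-0 without lincomycin replicate 2 (0.0544). SWEET2 lost it without 3 of the Col-0 arrays (up to 0.107) and SWEET13 without 2 (up to 0.0953).

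Of 3 measured genes of storage lipid breakdown, AIM1, of fatty acid β-oxidation, rose 1.28-fold (adjusted p = 0.0375). SDP1, the lipase that starts oil breakdown, had a log2 fold change of 0.28, and ICL, isocitrate lyase of the glyoxylate cycle, one of 0.65 with treated arrays at 7.25 and 8.06. AIM1 lost its call without each Col-0 array (0.0862 to 0.234). WSD1, a wax ester synthase, fell 1.87-fold, from 4.58 and 4.03 to 3.41 and 3.39, and missed the threshold without Col-0 without lincomycin replicate 1 (0.0806).

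Genes of energy sensing and self-digestion were also among the calls. AKINBETA1, a β subunit of SnRK1, the kinase that responds to low sugar, stood at 7.90 and 7.79 without and at 9.64 and 9.44 with lincomycin (3.24-fold, SE 0.13 on the log2 scale, adjusted p = 1.28e-05). ATL8, of a family of RING-type ubiquitin ligases, went from 5.86 and 5.96 to 7.07 and 7.25 (2.38-fold, adjusted p = 6.43e-05). Both were called without any array. ATG8 proteins are the small ubiquitin-like proteins that coat the membranes of autophagy, in which a cell digests its own contents. Of 9 measured ATG8 genes 4 rose, beside 8.27% of all nuclear genes, and 5 did not pass. The median was 0.37, and the log2 fold changes ran from 0.11 to 0.75. ATG8F went from 9.44 and 9.53 to 10.26 and 10.21 (1.69-fold, adjusted p = 0.000669). ATG8E, ATG8D and APG8H rose 1.59-fold, 1.53-fold and 1.38-fold. ATG8F alone of the family kept its call without any array. ATG8E lost it without each Col-0 array (0.116 to 0.201), also with each array centred on its median (adjusted p = 0.0602), and ATG8D and APG8H without 3 and 2 of them (up to 0.174 and 0.135). Among 4 vacuolar processing enzymes, proteases that mature vacuolar proteins, BETA-VPE fell 1.79-fold and the others did not pass. Its adjusted p was 0.0555 without Col-0 without lincomycin replicate 2.

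The called hormone genes belonged to the lists of auxin conjugation, gibberellin, ethylene and salicylate. Auxin is held down in part by GH3 enzymes, which couple it to amino acids, and GH3 genes are among the classic genes that auxin induces. GH3.3 stood at 3.85 and 3.80 without lincomycin and at 5.61 and 6.75 with it (5.11-fold, SE 0.31 on the log2 scale, adjusted p = 0.000489). The treated arrays lay far apart but well above the others. WES1, also known as GH3.5, went from 7.64 and 7.79 to 8.46 and 8.63 (1.78-fold, adjusted p = 0.000697). Of 12 measured auxin response genes these 2 rose and 0 fell (median 0.10). GH3.1, GH3.9 and GH3.17, also measured, did not pass. In the list of auxin synthesis and conjugation the same 2 were the only calls among 13 measured genes (median -0.01). All 7 measured Aux/IAA genes, which encode auxin-induced repressors, missed the threshold, with log2 fold changes from -0.38 to 0.21, and 6 of the 7 were dim. GH3.3 and WES1 kept their call without any array.

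Gibberellin is perceived by the GID1 receptors. GID1C went from 5.499 and 5.60 to 6.17 and 6.30 (1.61-fold, adjusted p = 0.00401) and GID1A from 5.77 and 5.87 to 6.79 and 6.43 (1.73-fold, adjusted p = 0.0229). The other 2 of 4 measured gibberellin genes did not pass (median of the 4, 0.44). EIN3, the transcription factor at the end of the ethylene pathway, went from 9.004 and 9.18 to 9.88 and 9.51 (1.52-fold, adjusted p = 0.00869). It was the only measured gene of the 60 in the ethylene list. GID1C was called without any array. GID1A lost its call without 3 of the Col-0 arrays (up to 0.151). EIN3 lost it without Col-0 with lincomycin replicate 1 (0.0724) and without Col-0 without lincomycin replicate 1 (0.0816).

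Of 8 measured genes of a salicylate list added later, RING1 and SAG101 rose and 6 did not pass (median 0.38). The same 2 genes are described with defence below. The cytokinin and jasmonate lists gave no call. All 6 measured cytokinin response regulators missed the threshold (-0.18 to 0.06) and all 6 were dim. Of the 33 genes of the jasmonate list fixed first only 1 was measured, so most of that list was not read. A list of 10 jasmonate genes, added once the named genes were known, had 9 measured. These ran from -0.33 to 0.45, none called, with 6 below the median level. No abscisic acid gene of the list was analysed here. FER, a receptor kinase for RALF peptides that senses the cell wall, rose 1.65-fold (8.995 and 9.17, then 9.77 and 9.85, adjusted p = 0.00326), and the peptide gene RALFL24 fell 1.69-fold (6.94 and 6.91, then 6.04 and 6.30, adjusted p = 0.005). The other 12 measured genes of RALF peptides and their receptors did not pass.

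The cell wall lists held few called members, in both directions, with medians from -0.11 to 0.18, and their shares are to be read against the 8.27% and 6.75% of all nuclear genes. Expansins loosen the wall so that cells can enlarge. EXPB1 stood at 7.25 and 7.08 without lincomycin and at 5.654 and 5.10 with it (3.46-fold lower, SE 0.17 on the log2 scale, adjusted p = 5.89e-05). EXPA16 went from 6.08 and 6.09 to 4.67 and 4.99 (2.39-fold lower, adjusted p = 0.00055) and EXPB3 from 8.26 and 7.73 to 7.14 and 6.69 (2.11-fold lower, adjusted p = 0.00945). Of 19 measured expansins these 3 fell and 16 did not pass (median -0.05). EXLA1, an expansin-like gene, had a log2 fold change of 0.86 (adjusted p = 0.0928, and 0.00747 in a fit of the Col-0 arrays alone). EXPB1 and EXPA16 were called without any array. EXPB3 lost its call without Col-0 with lincomycin replicate 2 and without Col-0 without lincomycin replicate 1 (0.0743 and 0.0959).

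Xyloglucan endotransglucosylases cut and rejoin the hemicellulose that ties cellulose fibres together. XTH32 went from 9.61 and 9.54 to 8.32 and 8.05 (2.63-fold lower, adjusted p = 9.20e-05), whereas XTH19 went from 7.25 and 7.02 to 8.21 and 8.49 (2.32-fold higher, adjusted p = 0.0233). The other 8 of 10 measured did not pass. Among 16 endoglucanases and other wall hydrolases GH9B8 and GH9C2 fell 2.19-fold and 1.53-fold and GH9B13 rose 2.02-fold. TBL26 and TBL28, of a family that acetylates wall polysaccharides, fell 2.34-fold and 1.51-fold, and TBL36 rose 1.52-fold, of 23 measured (median -0.02). ATPMEPCRB, a pectin methylesterase, went from 6.14 and 6.21 to 7.14 and 7.52 (2.23-fold, adjusted p = 0.016). The other 3 measured members of the pectin list did not pass. The peroxidase gene AT2G41480 (PRX25) went from 7.36 and 7.39 to 6.20 and 6.27 (2.198-fold lower, adjusted p = 0.0176). None of 8 cellulose synthase-like genes passed (-0.48 to 0.29). The tubulin gene TUB6 rose 1.54-fold, and the other 8 tubulin and actin genes did not pass.

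XTH32 and TBL26 held without any array. XTH19, GH9C2 and AT2G41480 lost their call without each Col-0 array (adjusted p 0.0561 to 0.148, 0.0601 to 0.116 and 0.0615 to 0.0984). ATPMEPCRB, GH9B13 and TBL36 lost theirs without 3 of them (up to 0.103, 0.171 and 0.289), GH9B8 and TBL28 without 2 (up to 0.0703 and 0.167), and TUB6 without Col-0 without lincomycin replicate 1 (0.0547).

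**Figure D3:**
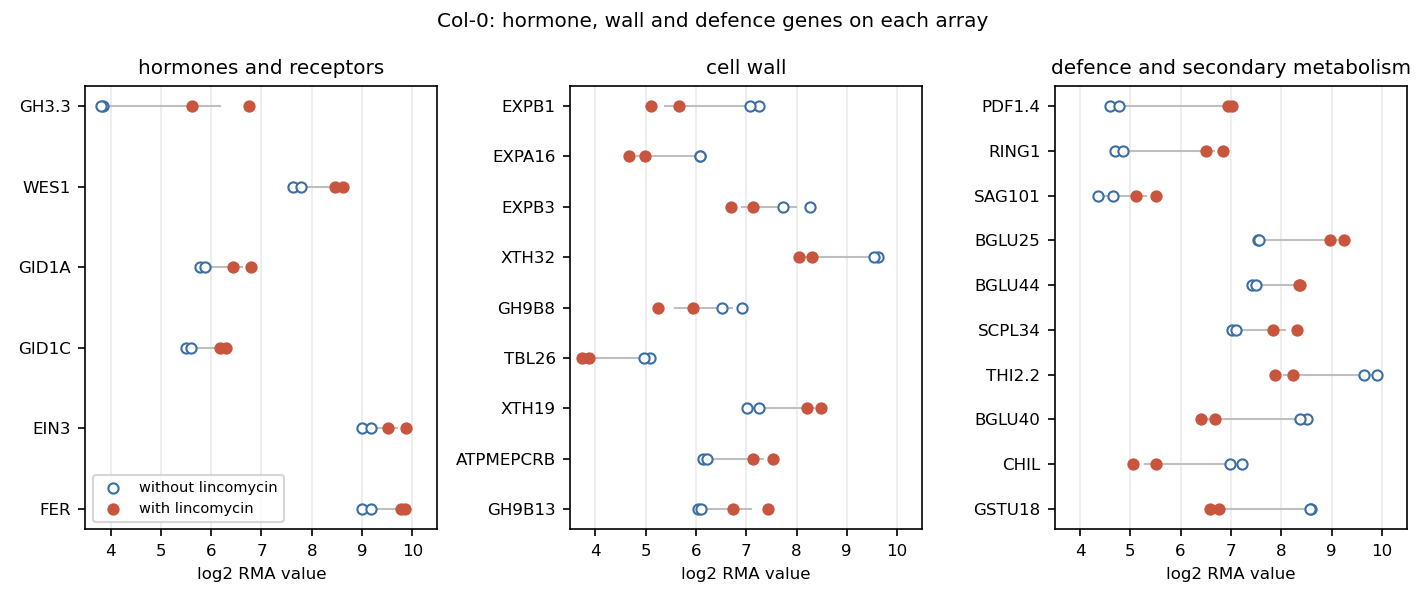
Log2 RMA values (horizontal axis) of hormone, cell wall, defence and secondary metabolism genes on the 4 Col-0 arrays; open points are without and filled points with lincomycin, and grey lines join the group means. EXPB1 lies at 7.25 and 7.08 without and at 5.654 and 5.10 with lincomycin, whereas PDF1.4 moves from 4.60 and 4.78 up to 7.03 and 6.94.

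Defensins and thionins are small antimicrobial peptides, and 1 of 10 measured rose and 1 fell, near the shares of all nuclear genes. PDF1.4 stood at 4.60 and 4.78 without lincomycin and at 7.03 and 6.94 with it (4.90-fold higher, SE 0.38 on the log2 scale, adjusted p = 0.00189). THI2.2, a thionin, went the other way, from 9.65 and 9.91 to 7.87 and 8.23 (3.31-fold lower, adjusted p = 0.000948). The median of the 10 was 0.10. RING1, a ubiquitin ligase that promotes cell death in response to a fungal toxin, went from 4.69 and 4.85 to 6.84 and 6.50 (3.72-fold, adjusted p = 1.29e-05). SAG101, a partner of EDS1 in immune signalling, rose 1.76-fold, from 4.65 and 4.35 to 5.51 and 5.11 (adjusted p = 0.0166). RING1 and SAG101 were the only 2 measured of the 32 genes of the defence signalling list. They are also the 2 called genes of the salicylate list. PDF1.4, THI2.2 and RING1 were called without any array. SAG101 lost its call without Col-0 with lincomycin replicate 1 (0.124) and without Col-0 without lincomycin replicate 2 (0.146).

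None of 7 measured WRKY factors, regulators of defence and senescence, passed (median 0.21). WRKY53 had a log2 fold change of 1.14 with treated arrays at 4.73 and 5.69 (adjusted p = 0.0785, and 0.039 without Col-0 with lincomycin replicate 1). Of the 7 genes of the chitinase and glucanase list only CHI and ChiC were measured. They had log2 fold changes of -1.36 and -1.08 (SE 0.68 and 0.57) and did not pass, although their Col-0 arrays did not overlap. In a fit of the Col-0 arrays alone both passed, with adjusted p of 0.0012 and 0.0123. Of 8 calmodulin-like genes CML41 and CML30 rose 1.65-fold and 1.70-fold. CML41 held without any array, and CML30 lost its call without 3 of the Col-0 arrays (up to 0.134). SBT3.12, a subtilisin-like protease, rose 2.06-fold, from 3.80 and 3.77 to 4.94 and 4.71 (adjusted p = 0.000811). No NBS-LRR resistance gene of the list was analysed here.

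β-Glucosidases release active compounds from their glucosides, in defence and in wall formation. Of 22 measured BGLU genes 2 rose and 2 fell (median 0.02). BGLU25 went from 7.53 and 7.55 to 9.26 and 8.98 (2.98-fold, adjusted p = 0.000183) and BGLU44 from 7.42 and 7.50 to 8.37 and 8.36 (1.87-fold, adjusted p = 0.00132). BGLU40 went from 8.51 and 8.37 to 6.68 and 6.40 (3.73-fold lower, adjusted p = 1.94e-05), and BGLU46 fell 1.64-fold. Of 29 serine carboxypeptidase-like genes 3 rose and 1 fell. The counts of both families are to be read beside the 8.27% higher and 6.75% lower of all nuclear genes. SCPL34 went from 7.01 and 7.11 to 7.83 and 8.31 (2.01-fold, adjusted p = 0.0034), and scpl35 rose 1.63-fold. BGLU46 and scpl35 lost their call without 3 of the Col-0 arrays (up to 0.0857 and 0.148), and BGLU25, BGLU44, BGLU40 and SCPL34 without none of the 12.

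Of 5 measured flavonoid genes 2 fell, and of 6 measured glucosinolate genes 1 fell, beside 6.75% of all nuclear genes. No member of either list was called higher, and the median of the glucosinolate genes was 0.01. CHIL, which assists chalcone synthesis at the start of the flavonoid pathway, went from 7.21 and 6.97 to 5.52 and 5.05 (3.51-fold lower, SE 0.23 on the log2 scale, adjusted p = 0.000351). UGT78D2, a flavonoid glucosyltransferase, fell 1.64-fold, and the other 3 of 5 measured flavonoid genes did not pass (median -0.54). GTR1, a transporter of glucosinolates, the sulfur-rich defence compounds of the cabbage family, went from 7.75 and 7.89 to 6.85 and 6.58 (2.15-fold lower, adjusted p = 0.000161). The other 5 measured glucosinolate genes did not pass, among them BCAT4, which starts the chain extension of methionine (log2 fold change 0.85, adjusted p = 0.174). CHIL and GTR1 were called without any array, whereas UGT78D2 lost its call without 3 of the Col-0 arrays (up to 0.204).

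UDP-glycosyltransferases attach sugars to hormones and small molecules. Of 51 measured, 5 fell and 2 rose (median -0.02), beside 6.75% and 8.27% of all nuclear genes. Besides UGT78D2, UGT84A3, which acts on hydroxycinnamates, fell 2.06-fold, UGT76E11 1.73-fold, UGT88A1 1.72-fold and GT72B1, which glucosylates phenolic compounds, 1.61-fold, while UGT73B1 and UGT85A4 rose 1.59-fold and 1.52-fold. UGT88A1 and GT72B1 held without any array, and the others lost their call without 2 or 3 of the Col-0 arrays (UGT84A3 up to 0.323, UGT76E11 up to 0.0881, UGT73B1 up to 0.298, UGT85A4 up to 0.338). GSTU18, a glutathione transferase of the tau class, went from 8.59 and 8.57 to 6.76 and 6.58 (3.76-fold lower, adjusted p = 5.70e-06) and held without any array. Of the other 13 measured glutathione transferases GSTL3 fell 1.39-fold and lost its call without 3 of the Col-0 arrays (up to 0.118). Of 22 cytochrome P450 genes, 14 of them dim, CYP71B5 rose 1.51-fold and lost its call without each Col-0 array (0.0566 to 0.125). Transporters of the NRT1/PTR family carry nitrate, peptides and hormones. Of 11 measured, 3 fell and 0 rose (median -0.28): GTR1, AT3G21670 (NPF6.4), from 11.06 and 11.06 to 9.66 and 9.20 (3.10-fold lower, adjusted p = 5.98e-05), and AT1G68570 (NPF3.1), 2.33-fold lower (adjusted p = 0.0231). AT1G68570 lost its call without 3 of the Col-0 arrays (up to 0.151).

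Stress and protein quality genes gave large single changes. COR15A and COR15B encode chloroplast proteins that protect membranes in the cold. COR15A stood at 8.08 and 7.84 without lincomycin and at 5.93 and 3.99 with it (7.99-fold lower, SE 0.61 on the log2 scale, adjusted p = 0.00631). The treated arrays lay far apart, both below the untreated ones. COR15B went from 5.48 and 5.49 to 4.74 and 3.93 (2.23-fold lower, adjusted p = 0.0372). Of 4 measured cold and dehydration genes these 2 fell (median -0.83). COR27, a cold- and clock-regulated gene outside the list, rose from 3.64 and 3.91 to 6.42 and 4.35 (log2 fold change 1.61, adjusted p = 0.0457). COR15A was called without any array, COR15B lost its call without 3 of the Col-0 arrays (up to 0.241), and COR27 kept it only without Col-0 with lincomycin replicate 2. Without replicate 1 of that group its log2 fold change was 0.58 (adjusted p = 0.218).

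Fes1A and Fes1C encode exchange factors of the Hsp70 chaperone and moved in opposite directions. Fes1A went from 8.13 and 8.31 to 6.64 and 6.49 (3.16-fold lower, adjusted p = 5.89e-06) and Fes1C from 5.18 and 5.23 to 7.20 and 6.75 (3.42-fold higher, adjusted p = 9.94e-05). Of 15 measured genes of protein folding in the endoplasmic reticulum 4 rose (median 0.17), beside 8.27% of all nuclear genes. BZIP60, a transcription factor of the unfolded protein response, went from 8.31 and 8.32 to 9.15 and 8.93 (1.65-fold, adjusted p = 0.00211). S1P, the protease that activates related factors, ATERDJ3B, a co-chaperone, and CRT1b, a calreticulin, each rose by 1.30-fold to 1.33-fold. Fes1A, Fes1C and BZIP60 held without any array. ATERDJ3B and S1P lost their call without each Col-0 array (0.061 to 0.141 and 0.102 to 0.163), CRT1b without 3 of them (up to 0.19), and S1P also with each array centred on its median (0.0597). Outside this list, BZIP61 rose 2.15-fold and lost its call without 3 of the Col-0 arrays (up to 0.22).

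PYE and BHLH101 encode bHLH transcription factors of the iron deficiency response. PYE went from 7.37 and 7.46 to 6.03 and 5.56 (3.06-fold lower, adjusted p = 0.00332) and BHLH101 fell 1.61-fold (adjusted p = 0.0435), while bHLH121, which acts upstream of both, went from 7.26 and 7.47 to 8.13 and 8.01 (1.64-fold higher, adjusted p = 0.00448). The other 4 of 7 measured did not pass. PYE held without any array, BHLH101 lost its call without each Col-0 array (0.111 to 0.216) and under repeated quantile normalization (0.0561), and bHLH121 without Col-0 without lincomycin replicate 1 (0.0512).

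Redox genes gave calls in both directions. TAPX, the ascorbate peroxidase of thylakoids, went from 8.45 and 8.38 to 6.31 and 6.40 (4.17-fold lower, adjusted p = 1.83e-05), and GR (AT3G54660), a glutathione reductase of plastids and mitochondria, fell 1.80-fold. The other 3 measured antioxidant genes did not pass, among them SAPX, the stromal ascorbate peroxidase (log2 fold change 0.17). VTC4, of ascorbate synthesis, fell 1.70-fold. Of 18 thioredoxins, glutaredoxins and methionine sulfoxide reductases 5 fell and 2 rose (median 0.06), beside 6.75% and 8.27% of all nuclear genes. Those that fell were THX (2.19-fold), ty2 (2.04-fold), TRXF2 (1.77-fold), NTRC (1.62-fold) and ATHM2 (1.38-fold), all of them thioredoxins or a thioredoxin reductase of plastids. TY1, also a plastid thioredoxin, had a log2 fold change of 0.10 and did not pass. GRXC2, a glutaredoxin, and MSRB3, a methionine sulfoxide reductase, rose 1.48-fold and 1.33-fold. TAPX, GR, VTC4, THX and ty2 held without any array, TRXF2 lost its call without Col-0 without lincomycin replicate 1 (0.0594), NTRC and GRXC2 without 2 of the Col-0 arrays (up to 0.0594 and 0.0735), ATHM2 without each (0.102 to 0.217) and MSRB3 without 3 (up to 0.263).

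**Figure D4:**
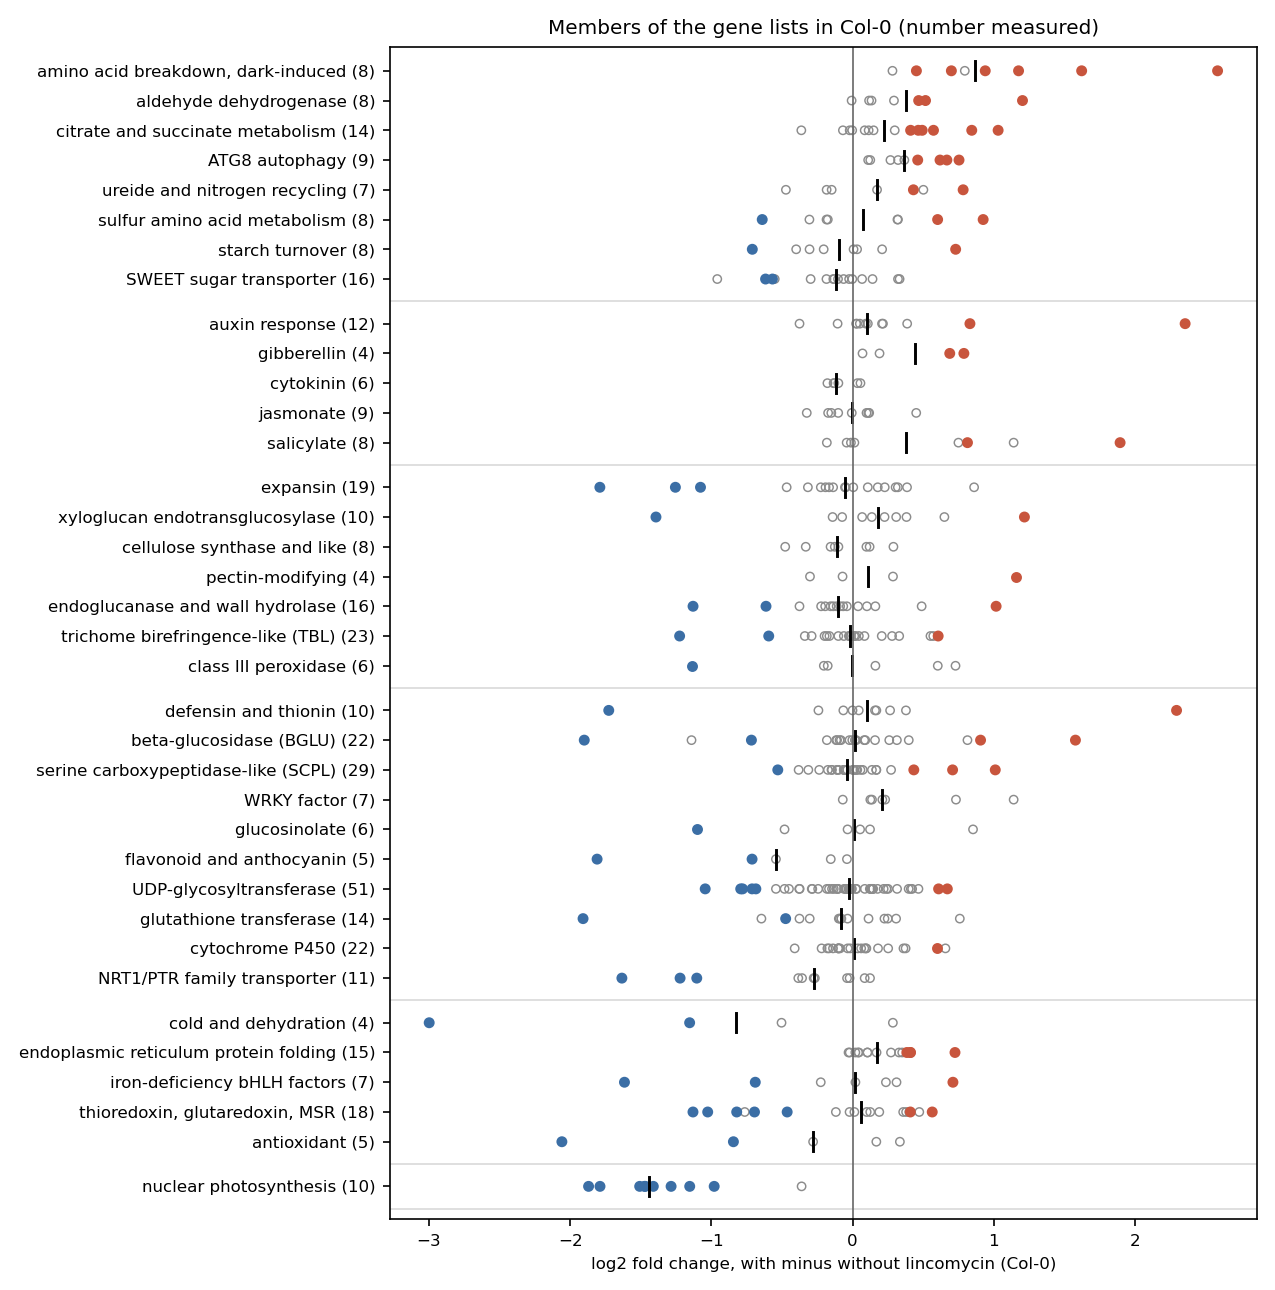
Log2 fold change with minus without lincomycin in Col-0 (horizontal axis) of each measured member of 36 gene lists; filled points passed the adjusted p threshold, red higher and blue lower, open points did not, and black bars are list medians. The 8 amino acid breakdown genes all lie above 0 with a median of 0.87, whereas most wall, defence and glycosyltransferase lists are centred near 0 with a few called members on either side.

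The lists other than photosynthesis held 560 measured genes. Of these 10.4% were higher and 7.86% lower, near the 8.27% and 6.75% of all nuclear genes, with a median of 0.02.

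The same treatment was measured in gun1-1 and abi4-102 on other arrays, fitted with a shared estimate of the spread. Of the 1093 nuclear genes called higher in Col-0, 562 were also called higher in abi4-102, 51.4% of the Col-0 genes and 58.4% of the 962 of abi4-102 (7.28% of all). In gun1-1 386 were, 35.3% of the Col-0 genes and 55.5% of the 695 of gun1-1 (5.26%). Of the 892 called lower in Col-0, 444 were also called lower in abi4-102, 49.8% and 72.5% of the 612 there (4.63%). In gun1-1 209 were, 23.4% and 36.6% of the 571 there (4.32%). Opposite calls numbered 0 and 1 in abi4-102 and 9 and 21 in gun1-1.

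The difference between responses was tested directly. The response of gun1-1 differed from that of Col-0 at 997 probe sets (4.38%) and that of abi4-102 at 0 by limma, where 2230 had an unadjusted p under 0.05 and an intensity trend with a robust prior called 9. The gun1-1 count fell to 424 and 392 without Col-0 without lincomycin replicate 1 and replicate 2, and to 529 without gun1-1 without lincomycin replicate 1. It was 840 without replicate 2 of that group, the sample with the ambiguous genotype label. For none of the 8 amino acid breakdown genes did the response in gun1-1 differ from that in Col-0 at the threshold. MCCA rose by 2.09 on the log2 scale in gun1-1 and by 2.30 in abi4-102, beside 2.58 in Col-0, and MCCB by 0.97 and 1.105, beside 1.62. The difference for MCCB, -0.65 in gun1-1, had an adjusted p of 0.0993. ATL8 rose in Col-0 and had a log2 fold change of -0.05 in gun1-1 (difference -1.30, adjusted p = 0.00265). GSTU18 fell in Col-0 and had one of 0.09 in gun1-1 (difference 2.00, adjusted p = 0.000611). EXPB1 fell in all 3 genotypes, by 1.79 in Col-0, by 2.10 in gun1-1 and by 1.69 in abi4-102.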

How the data were processed

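The deposited values are log2 expression values that the authors made with RMA, per the submitters' processing notes. RMA corrects background, equalises the arrays' distributions and summarises probes, so a change in total mRNA would not be seen and small differences of dim genes are shrunk. Its version is not given in the sources used here. The log2 scale was read from the values, with array medians of 5.44 to 5.52. Of 22810 probe sets, 64 controls were left out. Of the rest 13513 named 1 gene, 503 several and 8730 were unnamed here, and names were updated from the gene table of assembly TAIR10.1 (13436 probe sets matched). A gene with several probe sets was read from its brightest.

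limma 3.58.1 in R 4.3.3 (lmFit, eBayes) was fitted to all 12 arrays with 6 group means and 6 residual degrees of freedom, two-sided, and was tested on simulated data. SE is the standard error of limma's moderated test. A dim gene is one below the median level of nuclear genes. The members and the gene lists were chosen with earlier results of these data known, and 32 of the 75 lists were added after it was seen which genes the annotation names. 8 lists had no measured member. The rule for names took the 15 largest rises and falls among nuclear genes with separate arrays and, from each list, up to 4 called members in the prevailing and 2 in the other direction, or the 2 with the smallest p. The 20 largest rises and falls among genes with a symbol were added by a rule set after the values were seen, and 15 more genes were likewise chosen after their values were seen. The number of arrays limits the precision.

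Replicates 1 and 2 of the Col-0 groups did not deviate together (r = -0.0658 between the groups' replicate differences), so the numbers were not treated as pairs. Alternatives were a replicate block, a fit of the compared genotypes alone, a robust prior with an intensity trend, array weights, median centring, repeated quantile normalization, the upper 60% of probe sets by mean, probe sets naming 1 gene, a minimum log2 fold change of 1 and leaving out each array.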

Additional observations from a re-analysis of the deposited data

Results flagged for a closer look

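Of the 133 genes printed here, 23 had a lincomycin response that differed between gun1-1 and Col-0 by the test of the difference itself. The difference is the log2 response in gun1-1 minus that in Col-0, called at limma's adjusted p under 0.05. None differed between abi4-102 and Col-0. Over all probe sets 4.38% differed in gun1-1. Many printed genes were named for large Col-0 changes, so they do not stand for all genes. Among nuclear genes called in Col-0, the gun1-1 difference was called for 85 of 1093 that rose (7.78%) and 294 of 892 that fell (33.0%). Those of the 23 that fell in Col-0 had positive differences, that is a smaller fall, no fall or a rise in gun1-1: AT3G28270 4.56, AT2G27420 3.94, AT1G60590 2.44, ATSPS4F 2.22, AT3G28220 2.07, GSTU18 2.00, AT5G48490 1.80, AT3G21670 1.42, NTRC 1.19, TAPX 1.03, ty2 1.00, BGLU40 0.91, THX 0.80 and STOMAGEN 0.75. Most of the 23 that rose in Col-0 had negative ones: GH9B13 -1.85, AT1G19530 -1.47, ATL8 -1.30, WES1 -1.24, scpl35 -1.21, TBL36 -1.12, SBT3.12 -0.87 and BGLU44 -0.83. BGLU25 rose more in gun1-1 (1.61). Each difference includes the same Col-0 arrays that showed the Col-0 response.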

How the results depend on the processing

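Over all probe sets the Col-0 response had 3948 calls. Keeping only probe sets that name 1 gene left 1960 (1069 higher, 891 lower), and a minimum log2 fold change of 1 left 902 (293 higher, 609 lower), both by their construction. Leaving out each array gave 2099 to 4059 calls, 913 to 2216 higher and 1186 to 1872 lower. The share of calls that were higher was 54.2%, 32.5% at a minimum log2 fold change of 1 and 43.5% without Col-0 without lincomycin replicate 2. The fit of the Col-0 arrays alone took 13 printed genes out of the calls and 4 into them. The gun1-1 difference had 997 calls, 466 over probe sets that name 1 gene, 540 at that minimum and 392 to 971 without each array. The abi4-102 difference had 0 calls, 9 with an intensity trend and robust prior and 0 to 4 without each array. The replicate block gave 3881 calls, 2083 higher and 1798 lower, with 903 for the gun1-1 difference, and took 5 of 133 printed genes out of the calls: AT2G43620 (adjusted p = 0.0615), TBL36 (0.0626), UGT85A4 (0.0575), ASPGA1 (0.053) and S1P (0.0509). The intensity trend took out 8, median centring 6, probe sets naming 1 gene 5 and repeated quantile normalization 3. Of 119 printed genes that were called, 59 stayed called without any of the 12 arrays. EXPA7 (-0.05) ran from -0.21 to 0.11 without each array, reversing without Col-0 with lincomycin replicate 2 with an adjusted p of 0.91, and the cause was not tested. With 2 arrays a group, changes of dim genes and small changes are limited by precision. A fit without a Col-0 array leaves 1 array in that group, so a lost call does not by itself show that the array drove the change.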

Other observations

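Further lists outside the main groups gave a few calls each. Of 8 genes of sulfur amino acid metabolism HMT-1, a homocysteine methyltransferase, and LCD, named a cysteine desulfhydrase, were higher (6.41 and 6.35, then 7.21 and 7.40, and 7.42 and 7.36, then 8.09 and 7.89), and ARD4, of the methionine salvage cycle, fell 1.56-fold. Of 7 genes of ureide and nitrogen recycling URE, urease, rose 1.72-fold, from 4.03 and 3.97 to 4.83 and 4.73, and ASPGA1, an asparaginase, 1.35-fold. URE stayed called without any array, ARD4 and LCD without 2 of the 4 Col-0 arrays, ASPGA1 without 1 and HMT-1 without none. None of 9 measured cell cycle and histone genes passed (log2 fold changes -0.13 to 0.30), nor did any of 8 glutamate receptor-like genes (-0.32 to 0.50).

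Among the largest rises of genes with a symbol were 3 that were picked here after their values were seen. SCL21, a GRAS-family protein, went from 5.75 and 5.71 to 6.91 and 6.81, BSH, a subunit of the SWI/SNF chromatin remodelling complex, from 5.79 and 6.13 to 7.13 and 7.04, and OBE1, a PHD-finger protein of meristem development, from 5.77 and 5.55 to 6.90 and 6.53. All 3 stayed called without any array. In abi4-102 their log2 fold changes were 1.09, 1.24 and 0.88, and in gun1-1 0.85, 1.11 and 0.53.

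The calls of neighbouring genes were counted, with no test. Of 1067 measured neighbours of a gene called higher, 12.6% were called higher (8.27% of all nuclear genes), and of 839 measured neighbours of a gene called lower 9.54% were called lower (6.75%), in the gene order of assembly TAIR10.1. Of 5813 adjacent pairs, 67 were both higher, 40 both lower and 70 opposite.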
